A study of Rattus norvegicus with 27 samples.

Results

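The genes described here are Ibsp (integrin-binding sialoprotein, also called bone sialoprotein) and 8 other genes of bone-type matrix: Spp1, Sparc, Runx2, Alpl, Mgp, Postn, Dcn and Bgn. They were taken by gene name from the 17315 genes of a cell mRNA count table, and each of the 9 names had a row. Ibsp was chosen by its measured levels, very high in the dbcAMP-treated cells and low elsewhere, so its levels between stages are given as a description without a test. The other 8 were included for their known roles in bone matrix, with earlier results of these data known. The cells were commercial primary rat Schwann cells, the glia that ensheathe and myelinate the axons of peripheral nerves. They were sampled at 3 stages with 3 libraries each. Differentiated cells had received 1 mM dbcAMP (dibutyryl cyclic AMP, a cell-permeable form of the second messenger cyclic AMP) for 72 h in DMEM with 1% serum. Dedifferentiated cells had the same 72 h of treatment and then 72 h without dbcAMP in a complete medium with 10% serum, forskolin (an activator of adenylyl cyclase) and neuregulin (a Schwann cell growth factor). Undifferentiated cells received no dbcAMP, and the labels say no more of their medium at that step. Stage and medium therefore changed together, and their parts cannot be told apart. The labels call the libraries biological replicates without naming separate animals or isolates, so p-values measure the spread between these cultures, which share a commercial source.

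Bone matrix is laid down by osteoblasts as collagen fibrils and then mineralized. Ibsp and Spp1 (osteopontin) belong to the SIBLING family of acidic, phosphorylated glycoproteins, which bind integrins through an RGD motif and bind calcium. Runx2 is the transcription factor required for osteoblast formation, and Alpl (tissue-nonspecific alkaline phosphatase) removes pyrophosphate, an inhibitor of mineral growth. Mgp (matrix Gla protein) is itself an inhibitor of calcification. Sparc (osteonectin) and Postn (periostin) are matricellular proteins that bind collagen, and Dcn (decorin) and Bgn (biglycan) are small leucine-rich proteoglycans. Several of these genes are also active in tissues that do not mineralize, peripheral nerve among them. In Schwann cells cyclic AMP promotes the myelinating phenotype, and inside cells it acts in part through CREB, which binds the CRE, or cyclic AMP response element.

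The libraries held 10058735 to 16212278 estimated counts, and 3 counts, taken here as the smallest level that can be told from none, came to 0.185 to 0.298 CPM (counts scaled to library size). CPM is not per length of transcript, so it compares a gene between libraries and not one gene with another. Of the 9 genes, 7 passed the filter on low counts that 10372 genes passed, and Mgp and Dcn did not. The Schwann cell label was checked with markers that included Sox10, the transcription factor of the Schwann cell lineage, and S100b, Erbb3, Ngfr, Egr2 and Cdh19, each of which had counts in every library. Sox10 had 1252 to 1480 CPM in undifferentiated, 964 to 1110 CPM in differentiated and 1325 to 1539 CPM in dedifferentiated libraries. These were whole cultures, in which fewer cells of a type and less RNA per cell cannot be told apart.

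Ibsp was close to the detection limit in undifferentiated cells, among the genes with the most counts in differentiated cells, and low again after dbcAMP withdrawal. Undifferentiated libraries had 0.725, 0.961 and 0.589 CPM of Ibsp in replicates 1, 2 and 3, from 9, 10 and 9 counts. Differentiated libraries had 1043, 1659 and 946 CPM, from 14155, 21495 and 15331 counts. Dedifferentiated libraries had 2.46, 2.29 and 2.03 CPM, from 29, 23 and 27 counts. All 3 differentiated libraries stood far above the other 6, and the dedifferentiated libraries, though low, lay above every undifferentiated one. The means were 0.759 ± 0.188 CPM (SD, n = 3) in undifferentiated, 1216 ± 387 CPM in differentiated and 2.26 ± 0.215 CPM in dedifferentiated cells. The mean under dbcAMP was thus 1603 times that of undifferentiated cells and 538 times that of dedifferentiated cells. The ratio rests on 28 undifferentiated counts in all, and the ratio of the summed counts per total was 1623, with a 95% interval of 1123 to 2442 that covers counting error only. In the differentiated libraries Ibsp took 0.104%, 0.166% and 0.0946% of all counts and ranked 94th, 44th and 114th among all genes by counts. Replicate 2 was the highest of the 3, and replicates 1 and 3 were close together. The level left after withdrawal was 2.98 times that of undifferentiated cells.

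The Ibsp promoter is shown because its gene had the widest range of level among the 9, beside those of Postn and Alpl, which also rose under dbcAMP, and of Runx2, which fell. Sequences are the 250 bases before the transcription start of the RefSeq annotation of the rat assembly GRCr8, written 5′ to 3′ on the gene's own strand, and 6 of the 9 genes had an entry. Capitals mark matches, on either strand, to the CRE half-site TGACG, the Runx core ACCACA, the CCAAT box CCAAT and the TATA box TATAAA. The Ibsp stretch lies at chr14:5757243-5757492 (minus strand), that of Postn at chr2:140677811-140678060 (plus strand), that of Alpl at chr5:155289786-155290035 (minus strand) and that of the upstream Runx2 start at chr9:23664808-23665057 (plus strand).
Ibsp: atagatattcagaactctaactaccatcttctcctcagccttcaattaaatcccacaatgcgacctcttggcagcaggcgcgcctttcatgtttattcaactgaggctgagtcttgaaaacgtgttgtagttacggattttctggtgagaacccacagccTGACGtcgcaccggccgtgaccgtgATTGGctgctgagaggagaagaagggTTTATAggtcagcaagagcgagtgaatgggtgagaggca
Postn: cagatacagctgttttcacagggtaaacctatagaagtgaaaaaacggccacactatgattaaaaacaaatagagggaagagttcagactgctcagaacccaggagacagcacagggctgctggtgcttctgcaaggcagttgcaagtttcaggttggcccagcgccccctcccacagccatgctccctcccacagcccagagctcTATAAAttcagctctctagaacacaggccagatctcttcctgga
Alpl: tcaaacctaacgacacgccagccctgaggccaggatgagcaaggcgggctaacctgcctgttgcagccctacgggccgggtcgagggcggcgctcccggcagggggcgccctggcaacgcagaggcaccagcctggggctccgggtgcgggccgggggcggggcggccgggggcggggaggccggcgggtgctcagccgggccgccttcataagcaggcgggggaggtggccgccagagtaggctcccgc
Runx2: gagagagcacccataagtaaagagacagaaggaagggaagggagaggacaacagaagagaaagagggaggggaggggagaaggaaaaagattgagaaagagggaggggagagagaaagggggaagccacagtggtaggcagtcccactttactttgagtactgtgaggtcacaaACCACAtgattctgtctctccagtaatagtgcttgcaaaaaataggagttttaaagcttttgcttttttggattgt
Ibsp held a CRE half-site on its sense strand from -90 to -86 relative to the start, an inverted CCAAT box from -65 to -61 and an inverted TATA box from -39 to -34. Its base composition was 49.2% G and C. Postn held a TATA box in the forward direction from -44 to -39 at 50.8% G and C. Alpl had 76.0% G and C and none of the motifs searched. The upstream Runx2 start had a Runx core match from -76 to -71, and 2 more from 28 to 33 and from 36 to 41, past the printed stretch. The other Runx2 start, not printed, had a CRE half-site on the opposite strand from -107 to -103, so the half-site was not particular to Ibsp. The full palindromic CRE, TGACGTCA, was in none of the 7 windows of the 6 genes, counted over 250 bases before and 50 after each start. Over all 33469 RefSeq windows of that length, 1.83% held the full CRE, 21.2% the half-site, which the full CRE contains, 17.3% the Runx core, 37.5% the CCAAT box and 14.2% the TATA box. A match is a match of letters and not a measured binding site.

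**Figure D1:**
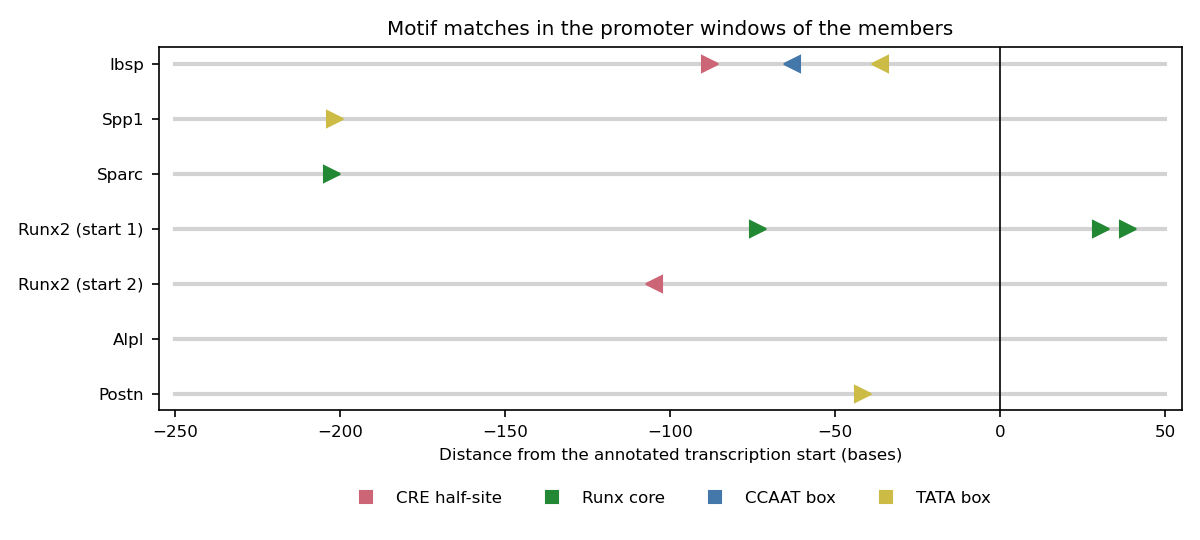
Positions of motif matches in the RefSeq promoter windows of 6 of the 9 genes (Runx2 has 2 starts). The x axis is the distance from the transcription start in bases, each row is a promoter, the colour gives the motif, and arrows to the left are matches on the opposite strand; the Ibsp row holds a CRE half-site, an inverted CCAAT box and an inverted TATA box between -90 and -34, and the Alpl row holds none.

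**Figure D2:**
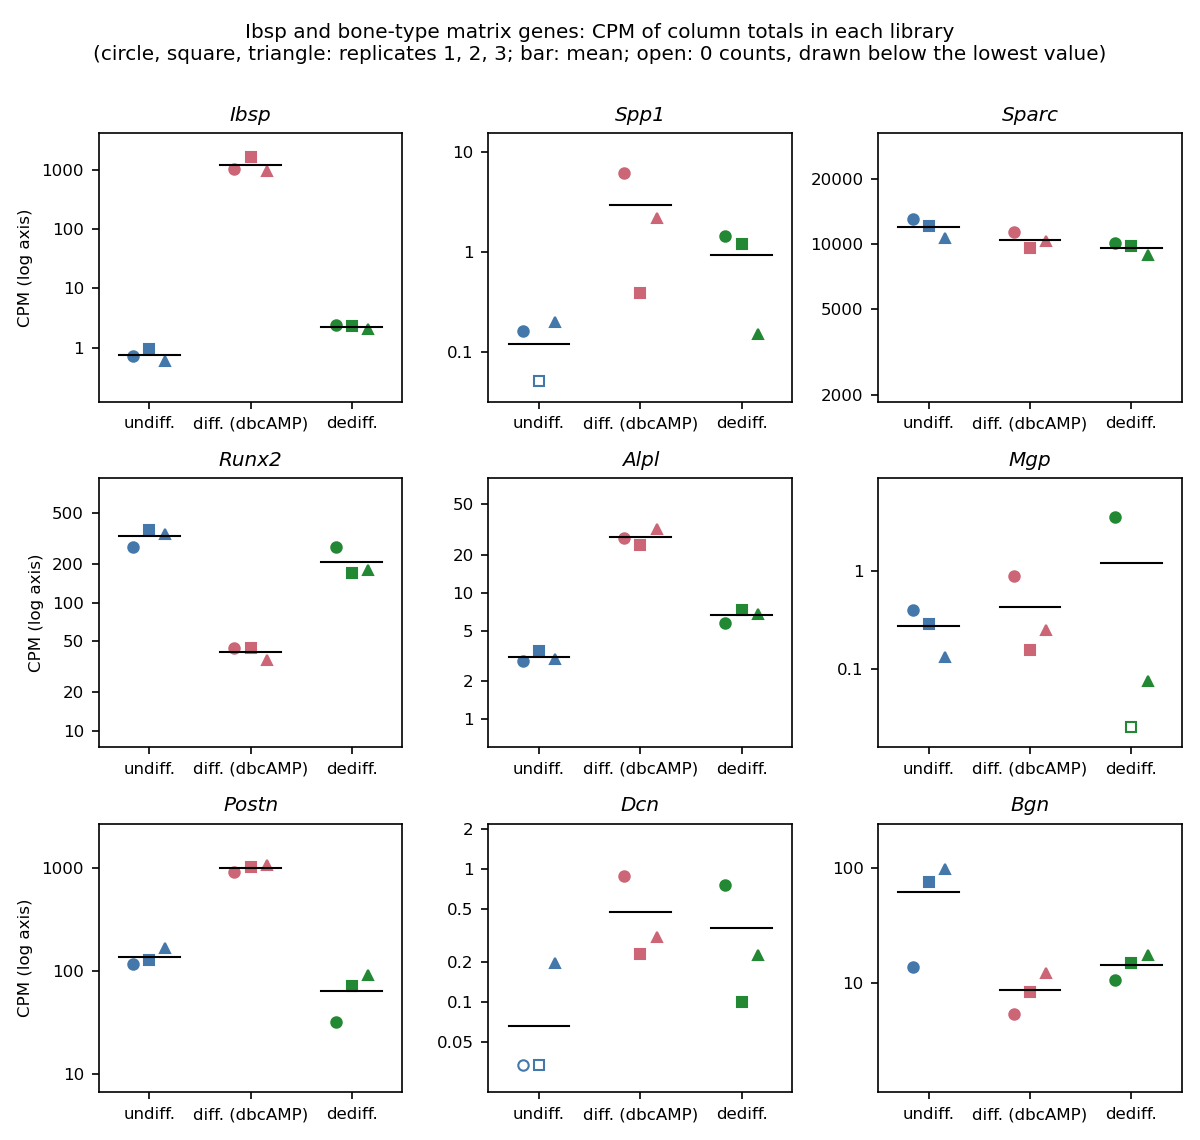
Level of each of the 9 genes in every library, in CPM on a log axis, by stage. Circles, squares and triangles are replicates 1, 2 and 3, bars are stage means, and open symbols are libraries with 0 counts; Ibsp, Alpl and Postn are highest in the differentiated libraries, Runx2 and Bgn are lowest there, and Sparc stays between 8913 and 13107 CPM.

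Spp1, the other integrin-binding SIBLING glycoprotein of the 9, was also highest under dbcAMP but remained a low-abundance transcript. It had 2, 0 and 3 counts in the undifferentiated libraries, 85, 5 and 36 in the differentiated and 17, 12 and 2 in the dedifferentiated ones. These came to 0.161, 0 and 0.196 CPM, then 6.26, 0.386 and 2.22 CPM, then 1.44, 1.19 and 0.150 CPM. The differentiated libraries all lay above the undifferentiated ones, but they differed widely among themselves, with replicate 1 the highest and replicate 2 near the undifferentiated level. Spp1 rose in differentiated against undifferentiated cells by 4.37 ± 1.17 (log2 change ± SE, edgeR quasi-likelihood test, adjusted p = 0.008). Without the differentiated library of replicate 1 the change was 3.21 (adjusted p = 0.0321). From the summed counts the ratio was 22.5, with an interval of 9.37 to 70.4 for counting error. The change on withdrawal was -1.69 ± 0.883 (adjusted p = 0.14) and did not pass the test, and it rested on single libraries: it was -2.2 and called without the differentiated library of replicate 2 (adjusted p = 0.0386), and -0.53 without that of replicate 1 (adjusted p = 0.643). Nor was a change called from the 2.67 ± 1.33 between dedifferentiated and undifferentiated cells (adjusted p = 0.16). Spp1 passed the low-count filter through its differentiated and dedifferentiated libraries.

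Runx2 went the other way from Ibsp: the osteoblast transcription factor was lowest under dbcAMP. Undifferentiated libraries had 274, 371 and 343 CPM, differentiated libraries 44.5, 44.1 and 36.0 CPM, and dedifferentiated libraries 273, 169 and 179 CPM. The 3 stages did not overlap, although the highest dedifferentiated library (replicate 1) reached almost the lowest undifferentiated one. Runx2 fell by 3.05 ± 0.196 on the log2 scale under dbcAMP, from 329 ± 50.2 to 41.6 ± 4.79 CPM (edgeR adjusted p = 3.7e-07). It rose by 2.33 ± 0.192 after withdrawal to 207 ± 57.3 CPM (edgeR adjusted p = 5.84e-06). The level after withdrawal was still below the undifferentiated one by a log2 change of -0.71 ± 0.18 (edgeR adjusted p = 0.0132). That last call was lost without the dedifferentiated library of replicate 3 (-0.61, edgeR adjusted p = 0.058).

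Alpl, the pyrophosphate-cleaving enzyme, followed the order of Ibsp at a much smaller fold. It had 2.90, 3.46 and 3.01 CPM in undifferentiated, 27.0, 23.8 and 31.9 CPM in differentiated and 5.76, 7.36 and 6.84 CPM in dedifferentiated libraries. Replicates were close together, and the 3 stages did not overlap. Alpl rose by 3.08 ± 0.172 on the log2 scale under dbcAMP (edgeR adjusted p = 1.38e-07), an 8.48-fold change. After withdrawal it fell by 2.04 ± 0.16 (edgeR adjusted p = 4.23e-06). It stayed 2.06-fold above undifferentiated cells, a log2 change of 1.05 ± 0.181 (edgeR adjusted p = 0.00155).

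Postn, a collagen- and integrin-binding matricellular protein, rose under dbcAMP and after withdrawal dropped below where it began. Undifferentiated libraries had 115, 126 and 166 CPM, differentiated libraries 915, 1007 and 1070 CPM, and dedifferentiated libraries 31.6, 71.0 and 89.9 CPM. Every differentiated library was above every other, and every dedifferentiated library was below every undifferentiated one. Replicate 1 was the lowest of its stage at all 3 stages. The rise under dbcAMP was 2.82 ± 0.293 on the log2 scale, from 136 ± 26.7 to 997 ± 77.9 CPM (edgeR adjusted p = 1.32e-05). The fall on withdrawal was the largest of the 6 tested genes at -3.95 ± 0.31, or 15.4-fold, to 64.2 ± 29.7 CPM (edgeR adjusted p = 4.23e-06). Dedifferentiated cells were lower than undifferentiated ones by a log2 change of -1.13 ± 0.283 (edgeR adjusted p = 0.0128).

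Sparc, which binds collagen and counters cell spreading, was abundant at every stage and changed least. It had 13107, 12121 and 10665 CPM in undifferentiated, 11395, 9554 and 10344 CPM in differentiated and 10094, 9815 and 8913 CPM in dedifferentiated libraries. It took 0.891% to 1.31% of the counts and ranked from the 3rd to the 5th gene of its library by counts. The differentiated libraries overlapped both other stages. The log2 change was -0.26 ± 0.129 under dbcAMP (edgeR adjusted p = 0.105) and -0.11 ± 0.129 on withdrawal (edgeR adjusted p = 0.522). Between dedifferentiated and undifferentiated cells it was -0.37 ± 0.129, with a 95% interval of -0.621 to -0.114 and libraries that did not overlap, and it just missed the threshold (edgeR adjusted p = 0.0545). That comparison changed sides with the method, with adjusted p from 0.00493 to 0.178 over 8 alternatives in the closing section.

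The 2 proteoglycans differed in abundance, and Bgn was lowered under dbcAMP. Bgn had 13.7, 75.7 and 97.5 CPM in undifferentiated, 5.30, 8.26 and 12.3 CPM in differentiated and 10.5, 14.9 and 17.4 CPM in dedifferentiated libraries. Undifferentiated replicate 1 stood well below the other undifferentiated libraries, at a level within the dedifferentiated range. Bgn fell by 2.89 ± 0.57 on the log2 scale under dbcAMP (edgeR adjusted p = 0.00128) and by 3.36 without that library (edgeR adjusted p = 3.16e-06). Its change on withdrawal, 0.73 ± 0.579, was not called (edgeR adjusted p = 0.324), but it was called without undifferentiated replicate 1, at the same 0.73 (edgeR adjusted p = 0.0435). Dedifferentiated cells were lower than undifferentiated ones by a log2 change of -2.16 ± 0.551 (edgeR adjusted p = 0.0139), a call lost without undifferentiated replicate 3 (-1.7, edgeR adjusted p = 0.0551).

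Dcn, the close relative of Bgn that binds collagen fibrils, was near the limit of detection, with 0, 0 and 3 counts in undifferentiated, 12, 3 and 5 in differentiated and 9, 1 and 3 in dedifferentiated libraries. Mgp, the calcification inhibitor, had 5, 3 and 2 counts in undifferentiated, 12, 2 and 4 in differentiated and 42, 0 and 1 in dedifferentiated libraries. Its 42 counts came to 3.56 CPM in 1 library, dedifferentiated replicate 1, while the other 2 of that stage had 0 and 1. Neither gene entered the edgeR test. The Dcn counts came to 20 in differentiated against 3 in undifferentiated libraries, a ratio per total of 5.94 with a 95% interval of 1.76 to 31.2 for counting error alone. Libraries of Mgp overlapped between all stages. Replicate 1 was the highest library of its stage for Mgp, Dcn and Spp1 alike in both the differentiated and the dedifferentiated cells, and the lowest for Bgn and Postn at all 3 stages.

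**Figure D3:**
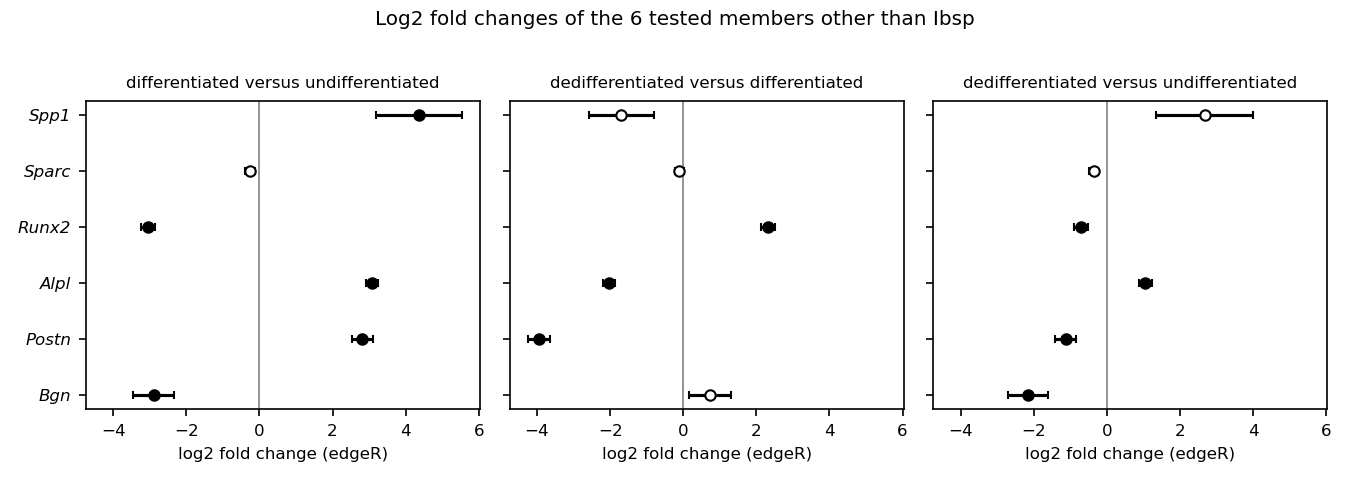
Log2 change of the 6 tested genes between stages, in 3 panels. Points are edgeR estimates, lines are 1 SE, and filled points passed the adjusted p of 0.05; under dbcAMP Spp1, Alpl and Postn lie to the right of 0 and Runx2 and Bgn to the left.

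Of the 6 tested genes besides Ibsp, 5 were called between differentiated and undifferentiated cells, where 59.6% of all tested genes were called. Spp1, Alpl and Postn rose (31.7% of all genes were called higher) and Runx2 and Bgn fell (27.9% lower). Spp1 passed the low-count filter only through differentiated and dedifferentiated libraries, so for it a call of higher was the likely outcome. In a fit of differentiated and undifferentiated libraries alone Spp1 did not pass the filter, and 4 of these genes were called. On withdrawal 3 of the 6 were called against 46.4% of all genes: Runx2 rose (23.2% higher), and Alpl and Postn fell (23.2% lower). Between dedifferentiated and undifferentiated cells 4 of the 6 were called against 29.4% of all genes, with Alpl higher (16.1%) and Runx2, Postn and Bgn lower (13.3%). Under dbcAMP 5 of the 6, Spp1 included, had no overlap between the libraries compared, 3 higher and 2 lower, as for 66.3% of all tested genes (38.9% higher, 27.4% lower). The same held for 3 of the 6 on withdrawal, 1 higher and 2 lower, beside 58.5% of all genes (28.3% higher, 30.2% lower). It held for 4 of the 6 between dedifferentiated and undifferentiated cells, 1 higher and 3 lower, beside 43.9% (26.8% higher, 17.1% lower). With 6 genes and with much of the transcriptome changed, these counts are a description and are not particular to bone-type matrix genes. The comparisons share their libraries, so they are not separate evidence. The labels put replicate 3 in another sequencing project than replicates 1 and 2. In replicates 1 and 2 alone the changes under dbcAMP were 5.04 for Spp1, 2.92 for Alpl, 2.92 for Postn, -2.93 for Runx2 and -2.78 for Bgn on the log2 scale, all called (adjusted p from 0.000131 to 0.0357). For Spp1 the same limit of the filter held there. The changes on withdrawal were then -1.94 for Alpl, -4.22 for Postn and 2.33 for Runx2, also called (adjusted p from 0.000418 to 0.00145). Between dedifferentiated and undifferentiated cells, Alpl (0.98, adjusted p = 0.0451) and Postn (-1.3, adjusted p = 0.0407) were still called there, whereas Runx2 (-0.60, adjusted p = 0.145) and Bgn (-1.86, adjusted p = 0.124) were not. The project of replicate 3 holds 1 library per stage and gave no test of its own.

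Bglap, Sp7 and Phex, defining markers of osteoblasts, were at or near 0 at every stage, the differentiated one included. Col1a1, the main collagen chain of bone and of fibroblasts, had means of 17153, 6697 and 10827 CPM in undifferentiated, differentiated and dedifferentiated cells. Bglap (osteocalcin) had 0 counts in every differentiated and dedifferentiated library, and Sp7 (osterix, the factor downstream of Runx2) had a mean of at most 0.0614 CPM at any stage. Fibroblast markers summed to 24405 to 29129, 12017 to 15683 and 16042 to 19578 CPM in the 3 stages in order. Col1a1 and Col1a2 made up nearly all of that sum. Of the 5 tested under dbcAMP, these 2 fell (edgeR adjusted p = 4.53e-05 and 0.0119) and 2 were not called. Col3a1 rose (53.2, 92.0 and 147 CPM in the 3 stages in order, adjusted p = 0.0425). Of the 9 fibroblast markers, which include Dcn, Lum had 0 counts in all 9 libraries, and Pdgfra had means of 0.259, 0.475 and 0.546 CPM. Of the 4 pericyte or smooth muscle markers, Pdgfrb rose under dbcAMP (136, 674 and 321 CPM in the 3 stages in order, adjusted p = 2.06e-07) and made up most of their sum, at 124 to 154, 542 to 810 and 323 to 346 CPM. Acta2, the smooth muscle actin, fell (3.16, 0.199 and 7.30 CPM, adjusted p = 0.000645), Myh11 was not called (adjusted p = 0.725), and Rgs5 had 0 counts throughout. Acta2 had 6, 2 and 0 counts in the differentiated libraries. It passed the low-count filter only through the other stages, where it was higher. Chondrocyte markers summed to 7.21 to 14.3, 19.1 to 24.8 and 13.8 to 19.6 CPM, nearly all of it from Comp (means of 10.1, 21.3 and 15.3 CPM). Acan, Col2a1 and Matn3 had at most 0.785 CPM in any library. Macrophage markers were low and their sum was highest under dbcAMP, at 0.322 to 1.70, 3.64 to 5.09 and 1.88 to 3.39 CPM, with Cd68 and Csf1r called higher (adjusted p = 0.00387 and 0.00231) and Aif1 and Adgre1 at 0 in all libraries. Csf1r had 0 counts in every undifferentiated library and passed the low-count filter only through differentiated and dedifferentiated libraries, so its call is a description. Endothelial markers summed to 1.21 to 3.08, 5.67 to 8.26 and 3.98 to 7.88 CPM, with Tek called higher (adjusted p = 0.000851) and Cdh5 at 0. Macrophages also express Spp1. The part of the cells with these markers in the changes above was not tested.

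Among the SIBLING relatives of Ibsp, Mepe was highest under dbcAMP and Dmp1 lowest. Mepe, a SIBLING glycoprotein of osteocytes, had 1, 5 and 2 counts in undifferentiated, 21, 18 and 27 in differentiated and 0, 0 and 1 in dedifferentiated libraries. It rose under dbcAMP (log2 change 2.73 ± 0.595, edgeR adjusted p = 0.00241) and fell on withdrawal (adjusted p = 0.00048). It passed the low-count filter through its differentiated libraries alone, where it was high. Dmp1, another matrix phosphoprotein of osteocytes, was lowest under dbcAMP, with means of 1.1, 0.425 and 1.3 CPM in the 3 stages in order. It fell by 1.46 (adjusted p = 0.0246) and rose by 1.62 (adjusted p = 0.0199), with 8, 8 and 29 counts in the undifferentiated libraries. In the differentiated libraries it had 6, 6 and 6 counts. Dmp1 passed the low-count filter only through the other stages, where it was higher, so a low under dbcAMP was the likely outcome. Dspp, the precursor of dentin phosphoproteins, had at most 3 counts in any library.

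Sparcl1, the nearest relative of Sparc and an adhesion-modulating matrix protein, changed widely. It had 0, 1 and 1 counts in undifferentiated libraries, 4858, 6925 and 5472 in differentiated and 1132, 753 and 958 in dedifferentiated ones. The ratio of differentiated to undifferentiated counts per total was 7689, with a counting interval of 2128 to 63496 because of the 2 counts below it (edgeR adjusted p = 3.28e-09). It remained at 81.0 ± 13.1 CPM after withdrawal against 410 ± 108 CPM under dbcAMP, a fall of 2.33 on the log2 scale (adjusted p = 4.23e-06). Smoc2, a calcium-binding member of the family, rose by 2.42 under dbcAMP (adjusted p = 0.000165) and fell by 2.32 on withdrawal (adjusted p = 0.000392). Fstl1, a secreted glycoprotein of the family, changed in the same directions by 0.27 (adjusted p = 0.012) and -0.66 (adjusted p = 7.76e-05). All 3 tested relatives of Sparc, of 7 in the table, were called higher under dbcAMP and lower on withdrawal, beside 31.7% and 23.2% of all tested genes. Sparcl1 passed the low-count filter only through its differentiated and dedifferentiated libraries.

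Runx1 and Cbfb, the haematopoietic Runx factor and the DNA-binding partner of all Runx proteins, fell under dbcAMP as Runx2 did. Runx1 went from 68.2 ± 24.6 to 6.16 ± 0.546 CPM (log2 change -3.54, edgeR adjusted p = 6.78e-07). After withdrawal it was at 7.39 ± 0.392 CPM, a change of 0.28 that was not called (adjusted p = 0.407), whereas Runx2 rose there. Cbfb fell by 1.41 (adjusted p = 3.63e-07) and rose by 0.94 on withdrawal (adjusted p = 1.71e-05). Whether Runx1 and Runx2 differed in their change on withdrawal was not tested. Runx3 had at most 3 counts in any library. Among transcription regulators of osteoblasts, Twist2, a bHLH repressor, rose under dbcAMP (log2 change 1.90, adjusted p = 0.0283), and Zfp521 and the homeobox factor Msx2 fell (-2.43 and -1.63, adjusted p = 0.00207 and 0.00455). Twist2 had 0, 7 and 15 counts in undifferentiated, 31, 21 and 44 in differentiated and 7, 8 and 4 in dedifferentiated libraries, and it passed the low-count filter through the differentiated libraries, where it was high. Zfp521 had 9, 6 and 3 counts in the differentiated libraries. It passed the filter only through the undifferentiated libraries, where it was high, so a call of lower was the likely outcome. Sp7 was too low to test.

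The fasciclin-domain relative of Postn, Tgfbi, moved opposite to it under dbcAMP. Tgfbi, a collagen-binding adhesion protein, fell from 1147 ± 28.5 to 172 ± 61.2 CPM (log2 change -2.81, edgeR adjusted p = 1.19e-06) and rose to 361 ± 12.5 CPM on withdrawal (adjusted p = 0.00137). Ogn (osteoglycin), a relative of Bgn and Dcn, fell by 2.07 under dbcAMP (adjusted p = 0.00245) and, as with Bgn, its change on withdrawal was not called (0.36, adjusted p = 0.574). Among 6 tested genes of Gla proteins, of which Mgp is one, and of their carboxylation, 4 fell and 1 rose under dbcAMP (27.9% and 31.7% of all tested genes). Of the Gla proteins, Gas6, a ligand of TAM receptors, and Pros1, its relative in blood clotting control, fell (-1.01 and -0.73, adjusted p = 0.00318 and 4.64e-05), and Prrg4, a membrane Gla protein, rose (0.43, adjusted p = 0.0142). Gas6 and Prrg4 were named after their values were seen. Vkorc1, which recycles vitamin K, fell by 1.16 (adjusted p = 1.26e-05), and Ggcx, the carboxylase, fell by 0.57 (adjusted p = 0.000794).

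**Figure D4:**
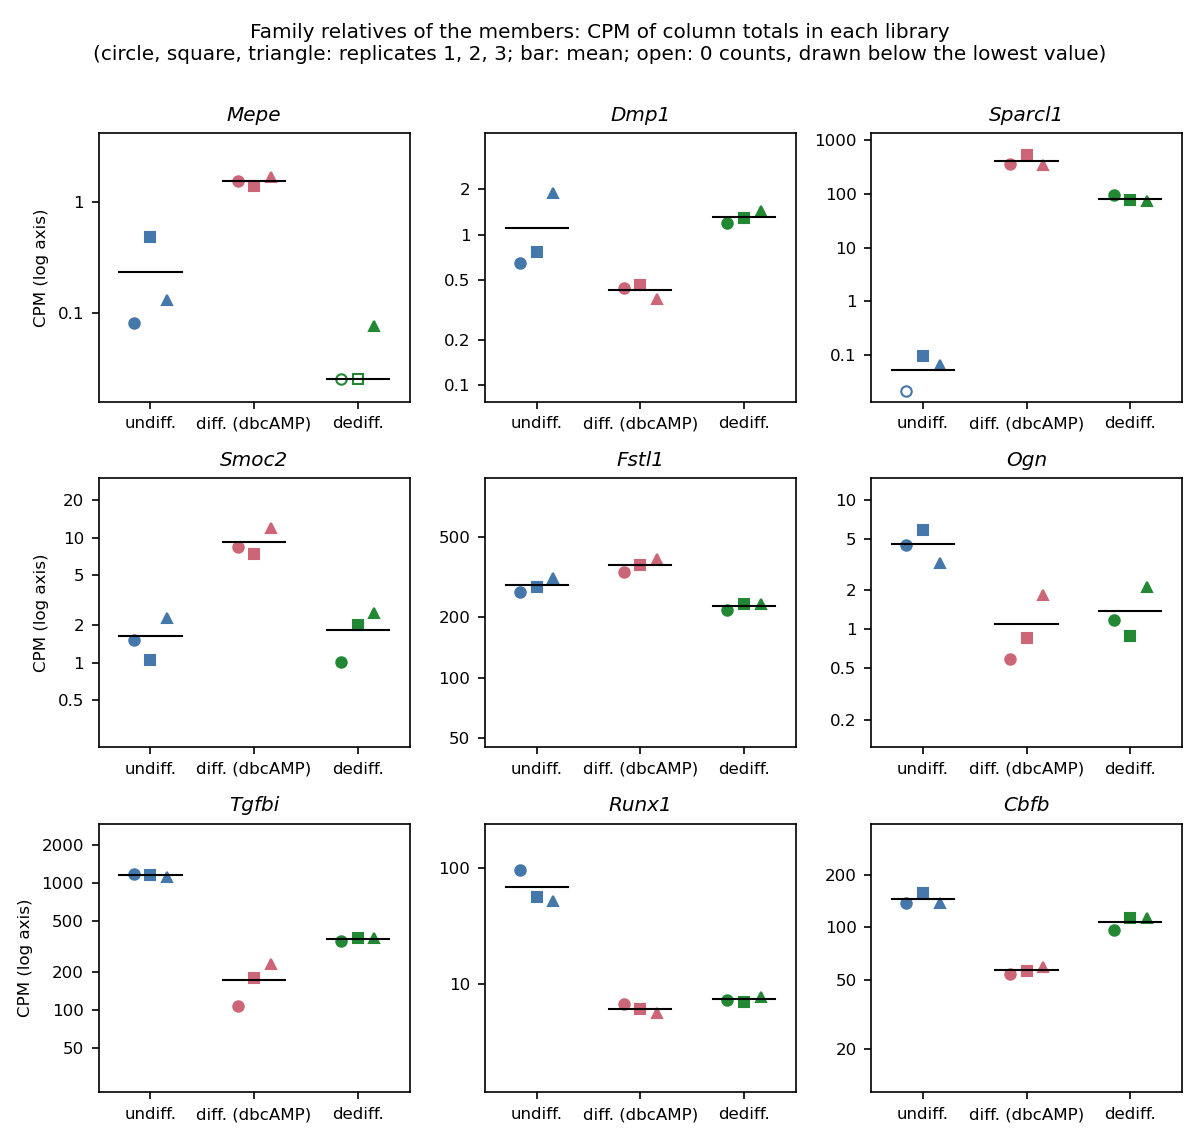
Level in every library, in CPM on a log axis, of 9 family relatives of the genes above, by stage, with symbols and bars as in the plot of the 9 genes. Mepe, Sparcl1, Smoc2 and Fstl1 are highest in the differentiated libraries, while Dmp1, Tgfbi, Runx1 and Cbfb are lowest there; Sparcl1 stays far above its undifferentiated level after withdrawal, and Runx1 stays near its differentiated level.

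Genes that handle phosphate and mineral changed in both directions. Of 10 tested besides Alpl, 4 rose and 3 fell under dbcAMP, beside 31.7% of all tested genes called higher and 27.9% lower, so the count is near that of all genes. Phospho1, a phosphatase of matrix vesicles, rose from 1.21 ± 0.0684 to 11.8 ± 0.567 CPM (log2 change 3.22, edgeR adjusted p = 2.78e-06). In contrast to Alpl it was at 13.5 ± 4.6 CPM after withdrawal, with no called change (0.21, adjusted p = 0.46). Ankh, which exports pyrophosphate and ATP, rose by 1.80 under dbcAMP (adjusted p = 2.16e-07) and fell by 1.14 on withdrawal (adjusted p = 1.21e-05), in the order of Alpl. The phosphate transporter Slc20a2 rose by 1.17 (adjusted p = 1.61e-05). The calcium-binding annexins Anxa5 and Anxa6, present in matrix vesicles, fell by 1.68 and 1.93 (adjusted p = 8.05e-07 and 1.82e-07) and rose again by 1.84 and 1.13 on withdrawal.

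Receptors that bind Ibsp, Spp1 or Postn were split. Of 8 listed genes, Itgav and Itga9 had no row under those names. Of 6 tested, 2 rose and 3 fell under dbcAMP (31.7% and 27.9% of all tested genes). Itga4, an integrin subunit that binds Spp1, rose from 21.3 ± 4.53 to 60.4 ± 11.7 CPM (log2 change 1.44, edgeR adjusted p = 2.85e-05). Itgb3, the beta subunit of the integrin that binds the RGD motif of Ibsp and Spp1, rose from 11.7 ± 5.18 to 42.6 ± 6.11 CPM (1.80, adjusted p = 0.000208) and fell by 1.25 on withdrawal (adjusted p = 0.00315). It was named after its values were seen. Cd44, a hyaluronan receptor that also binds Spp1, fell by 1.27 (adjusted p = 1.01e-05) and rose by 1.19 (adjusted p = 3.43e-05). The integrin subunits Itgb1 and Itga5 also fell under dbcAMP (-0.43 and -0.92, adjusted p = 0.00155 and 4.06e-05), and both were named after their values were seen. Itgb5, whose integrin binds periostin, had no called change under dbcAMP (0.02, adjusted p = 0.892) and rose by 1.15 on withdrawal (adjusted p = 1.51e-05).

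Of 12 genes for collagens, proteins that act in their processing or crosslinking, and fibronectin (Fn1), 6 fell and 4 rose under dbcAMP (27.9% and 31.7% of all tested genes). Col5a2, a fibril-nucleating collagen chain, fell from 4923 ± 224 to 1266 ± 197 CPM (log2 change -2.02, edgeR adjusted p = 1.51e-07). Loxl2, a collagen-crosslinking oxidase, fell by 3.04 (adjusted p = 5.76e-07). Pcolce, which enhances the removal of collagen propeptides, rose from 18.9 ± 6.8 to 135 ± 14.1 CPM (2.79, adjusted p = 1.17e-06) and fell by 1.44 on withdrawal (adjusted p = 0.000187). Over the 10 lists of relatives and pathway genes, leaving out the 9 genes themselves, 49 of the 72 genes in the table were tested. Under dbcAMP 16 were higher and 23 lower (31.7% and 27.9% of all tested genes), with a median log2 change of -0.293 beside 0.0526 for all tested genes. On withdrawal 13 were higher and 16 lower (23.2% and 23.2% of all genes), with a median of 0.157 beside -0.0072. Between dedifferentiated and undifferentiated cells 12 were higher and 19 lower (16.1% and 13.3% of all genes), with a median of -0.212 beside 0.0184.

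The genes whose levels followed Ibsp most closely over the 9 libraries were Nuak1 (a kinase of the AMPK family), Hspa4 (a chaperone of the Hsp110 type), Lpar1 (a lysophosphatidic acid receptor), Htra1 (a secreted serine protease) and Pde3a (a phosphodiesterase that breaks down cyclic nucleotides). Their Pearson correlations with Ibsp, taken on log2 CPM over 9 libraries, were 0.9966, 0.9964, 0.9949, 0.9939 and 0.9935 in that order. The 9 libraries form 3 stages and the likeness is mostly that of 3 stage levels, so it is a description. Mean levels in undifferentiated, differentiated and dedifferentiated cells were 7.09, 111 and 9.51 CPM for Nuak1. Pde3a had 0 counts in every undifferentiated library, a mean of 10.5 CPM in differentiated and 0.0283 CPM in dedifferentiated libraries. Hspa4 changed far less, with 239, 508 and 265 CPM, so a high correlation here tells the order and spacing of stages and not the size of the change. Among the 9 genes themselves, Ibsp correlated most with Alpl (0.968) and most negatively with Runx2 (-0.974) on the same scale.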

How the data were processed

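Messenger RNA of cultured rat Schwann cells was sequenced in 9 libraries, 3 per stage. The values deposited by the authors are estimated counts per gene made with Salmon, per the submitters' processing notes and the table's own name. Those notes also name STAR and HISAT2 without roles, and the genome build and annotation of the counts are not given in the sources used here. Of the values, 1.15% were fractional, none of them a value of the 9 genes, and all were rounded to whole numbers. Replicate numbers were taken from the sample titles, since the suffixes of the column names number them otherwise. The extracellular vesicle RNA of the same study was not used here.

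The test was the quasi-likelihood test of edgeR 4.0.16 (R 4.3.3), with TMM scaling, fitted to all 9 libraries without covariates after a filterByExpr filter (minimum count 10). Calls needed an adjusted p (Benjamini-Hochberg, over all 10372 tested genes) below 0.05, and every adjusted p without another tool's name is from this test. The SE of a log2 change was derived from the F statistic. CPM used the library totals over all rows. In simulated counts with known changes between differentiated and undifferentiated libraries, over 10271 genes, the test recovered 81.6% of 98 2-fold and 98% of 99 4-fold changes, with 3.28% false calls.

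The genes, the lists of relatives and the cell type markers were chosen with earlier results of these data known, and some genes of the lists are not reported here. Besides the 9 genes, the text names the 5 genes most correlated with Ibsp, family relatives, and up to 3 genes of smallest p per list and comparison. Exact Poisson or binomial intervals cover counting error only. Promoters come from RefSeq (GRCr8). Alternatives were a replicate block, the sequencing project as a covariate, DESeq2 1.42.0 (size factors or Wald test), library size alone, no filter, no abundant genes, the 2 stages compared alone, and left-out libraries.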

Additional observations from a re-analysis of the deposited data

How the results depend on the processing

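Over the alternatives run, no result changed direction. Of the 6 tested genes, 5, 3 and 4 were called in differentiated against undifferentiated, dedifferentiated against differentiated and dedifferentiated against undifferentiated cells. Without replicate 3 of every stage, 2 were called in the last comparison, and the counts over all genes fell from 4809 to 2606 on withdrawal and from 3045 to 1283 between dedifferentiated and undifferentiated cells. Fewer libraries entered those fits. Leaving out 1 library at a time gave 5 to 5, 3 to 4 and 3 to 5 of the 6 genes, and 5558 to 6415, 3916 to 5184 and 2246 to 3044 of all genes. Sparc between dedifferentiated and undifferentiated cells, not called at an adjusted p of 0.0545, was called with DESeq2's size factors (0.0411), the sequencing project as a covariate (0.0457), no low-count filter (0.0467) and the DESeq2 Wald test (0.00493). That Wald test also called Sparc (0.0281) under dbcAMP and Spp1 (0.0473) between dedifferentiated and undifferentiated cells. The cause was not tested. In a fit of the 2 stages alone, Spp1 did not pass the filter between differentiated and undifferentiated or between dedifferentiated and undifferentiated cells.

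The titles number the replicates without saying what an equal number stands for. Same-numbered libraries deviated together in 7 of 9 pairs (correlation over 0.1, lowest 0.028), and 7 of the 9 libraries correlated best with their own number in both other stages, which is a hint from the data and not a pairing in the design. With the replicate block, 5, 3 and 5 of the 6 genes and 6325, 5031 and 3256 of all genes were called. The added call was Sparc between dedifferentiated and undifferentiated cells (log2 change -0.36, adjusted p = 0.025).

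Depth limits Mgp, Dcn and Spp1, whose values rest on few counts, and the undifferentiated level of Ibsp, which rests on 28.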

Other observations

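Ibsp lies on chromosome 14 among other SIBLING genes, and the genes around it were read as a group after their values were seen. Of the 8 protein-coding genes on each side in the RefSeq order of GRCr8, 11 of 16 were in the table and 10 were tested. Under dbcAMP 8 were called higher and 2 lower, where 31.7% of all tested genes were called higher. The 8 were Abcg3l1, Spp1 and Mepe on one side and Sparcl1, Nudt9, Hsd17b11, Hsd17b13 and Klhl8 on the other. Spp1, Mepe and Sparcl1 passed the low-count filter only through libraries of the stages where they were higher. For them a call of higher was the likely outcome, and the count of 8 leans on them. Nudt9, an ADP-ribose pyrophosphatase, had 32.3 ± 3.74, 454 ± 24.5 and 99.5 ± 5.34 CPM (SD, n = 3) in undifferentiated, differentiated and dedifferentiated cells. Hsd17b13, a lipid-droplet enzyme, had 0.729, 3.18 and 1.21 CPM in the same order (log2 change under dbcAMP 2.02, edgeR adjusted p = 0.00208). Klhl8, an adaptor of a ubiquitin ligase, had 17.4, 42.0 and 30.8 CPM (1.21, adjusted p = 2.27e-05). Abcg3l1, a transporter-like gene with fractional counts, rose by 1.05 (adjusted p = 0.00244), and its reads may be shared with near-identical copies. Dmp1, the immediate neighbour of Ibsp on one side, and Pkd2, an ion channel gene, were the 2 that fell, Pkd2 by 0.25 (adjusted p = 0.0178). Dmp1 passed the low-count filter only through undifferentiated and dedifferentiated libraries, where it was higher. After withdrawal 7 of the 10 were called lower and 1 higher (23.2% and 23.2% of all tested genes), and against undifferentiated cells 4 were higher and none lower (16.1% and 13.3%). Neighbouring genes are not independent of each other, and no test of the group was made.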
